A study of Mus musculus with 14 samples.

Results

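The genes described here encode myelin proteins of mature oligodendrocytes, *Mbp*, *Mag*, *Mog*, *Mobp*, *Cldn11* and *Mal*, together with *Ugt8a*, an enzyme of myelin lipid synthesis. They were chosen by symbol, 7 of the 19215 genes in the gene tables of the whole spinal cord (WSC) RNA-seq, and their cassette exons were found by the same gene identifier, 11 of 13189 entries in the exon tables. Oligodendrocytes wrap axons of the central nervous system in compacted membrane. MBP holds the cytoplasmic faces of that membrane together, and its mRNA is carried into the growing processes before it is translated. MAG and MOG lie at the inner and outer faces of the sheath, CLDN11 forms the tight junctions between its turns, MAL is a proteolipid of membrane traffic, and UGT8A makes galactosylceramide, the main glycolipid of myelin.

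The study mapped where NOVA, a neuronal RNA-binding protein that recognises the motif YCAY (Y is C or T in DNA letters), binds RNA in motoneurons (MNs) and in the WSC of the mouse. Binding was measured by HITS-CLIP, in which RNA crosslinked to a protein by UV light is immunoprecipitated and sequenced. A unique tag is read as a contact, but background tags cannot be told apart here, as no input was used. The MN group consisted of 8 libraries from pooled spinal cords of 3-month-old C57BL/6 mice hemizygous for a BAC transgene, Chat:GFP-Nova #6 (line 6, 4 libraries) or Chat:GFP-Nova #17 (line 17, 4 libraries), precipitated with antibodies against GFP. The transgene expresses GFP-tagged NOVA2 from *Chat* sequences, that is, in cholinergic cells. The WSC CLIP group consisted of 4 libraries from wild-type C57BL/6 spinal cords of the same age, precipitated with a serum against endogenous NOVA. The RNA-seq consisted of 2 libraries from 12-week-old mice of a B6/SJL background, 1 male and 1 female, both carrying Tg(SOD1)2Gur/J, a human wild-type SOD1 transgene, so that no non-transgenic RNA was measured. Antibody, transgene, pooling of cords and cell type cannot be told apart in the comparison of MN with WSC CLIP.

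MN libraries held 65961 to 871804 unique tags and WSC libraries 2213104 to 6095995, while the RNA-seq libraries held 72006019 (male) and 65625173 (female) reads on genes. In CLIP, the 3 MN markers that could be tested (*Chat*, *Slc5a7* and *Chodl*) were all higher in MN (edgeR, FDR of at most 0.01). All 5 interneuron markers were lower by the same test. Of all 4536 genes tested, 27.6% were higher and 29.1% lower. Among the interneuron markers, *Pax2* passed the filter on low counts only through its WSC libraries, the group where it was high. The labelled tissue held oligodendrocyte RNA: of the defining markers found in the RNA-seq tables, *Cnp* reached a mean of 342 ± 4.92 RPKM (reads per kilobase of exon, scaled to library depth; SD, n = 2) and *Opalin* 83.9 ± 7.25, whereas the 5 Schwann cell markers of peripheral myelin summed to 2.10 RPKM in the male and 1.67 in the female library. In CLIP, MN replicates 1 and 2 of both lines carried a short 5′ barcode, whereas MN replicates 3 and 4 and all WSC libraries carried a long one, and the myelin genes differed between the 2 kinds of MN library. Values are therefore given with and without the short-barcode libraries.

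The stretches where NOVA tags were densest are shown first, as the sequences of these transcripts that gave most tags. For each gene, the 30-nt window with most WSC tags was located, centred on the median of those tags, and read from the mm9 genome on the strand of the gene. Each window is printed 5′ to 3′, with every match to YCAY in capitals (TCAT or TCAC, or either of these with C as its first letter). No sequence is shown for *Mbp*.
Mag (chr7:31686087-31686116, minus strand, coding exon): gCCATtgtgtgctacaTCACccagacgaga
Mog (chr17:37147818-37147847, minus strand, 3′ UTR): tCCACaccttcgtgccctTCATacccctgc
Mobp (chr9:120090356-120090385, plus strand, 3′ UTR): cagcgttggacgttagcTCATtaatgtgat
Cldn11 (chr3:31062884-31062913, plus strand, 3′ UTR): atTCACcaatatgaaggaaatgaaccaagc
Mal (chr2:127460163-127460192, minus strand, 3′ UTR): tgtcTCATgcttcaggtggggaactggagg
Ugt8a (chr3:125570013-125570042, minus strand, 3′ UTR): gcccTCATcagatcttattaatgagattcc

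All 7 windows, that of *Mbp* included, held at least 1 YCAY, and those of *Mbp*, *Mag* and *Mog* held 2. By comparison, 36.8% of 2479682 non-overlapping 30-nt windows of exons of other protein-coding genes held 1 or more on the sense strand, and 7.99% held 2 or more. Along the whole spans of the 7 genes, the share of 30-nt windows with the motif lay between 35.1% (*Ugt8a*) and 41.3% (*Mag*). Only the strand of the gene was searched, overlapping matches were counted separately, and a match describes the letters, not a site. Windows lay in the 3′ UTR in 6 of 7 genes, whereas that of *Mag* was coding.

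Tags were concentrated most on *Cldn11*. Its window in the last exon held 642 of 1180 WSC tags (54.4%, 95% Wilson interval 51.6 to 57.2). The 4 WSC libraries gave shares of 51.2%, 57.9%, 52.1% and 55.4%. Only 3 MN libraries had at least 10 tags on *Cldn11*, and there the window held 0 of 21, 3 of 16 and 8 of 35 tags. All 3 shares (0 to 22.9%) lay below those of the WSC libraries. No test was made, since the window was chosen on the WSC tags.

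*Mobp* and *Mbp* showed the same order with more tags behind it. The *Mobp* window, close to the end of its 3′ UTR, held 13.0%, 17.7%, 17.0% and 22.6% of the tags of the gene in the WSC libraries and 2.94%, 3.33% and 4.94% in the 3 MN libraries with at least 10 tags. The *Mbp* window, at chr18:82754479-82754508 in the 3′ UTR, held 10.2% to 13.5% of tags in WSC and 0 to 6.67% in the 6 MN libraries with at least 10 tags. In both genes the MN libraries did not overlap the WSC libraries. On *Mal* they did, since its window held 14.8% to 18.2% of tags in WSC and 8% and 16.7% in 2 MN libraries. The groups also overlapped on *Ugt8a* (5.07% to 6.14% in WSC, 0 to 5.56% in 3 MN libraries) and *Mog* (0 to 11.8% in WSC, 0 in 2 MN libraries), but not on *Mag* (9.09% to 24.2% in WSC, 0 in 2 MN libraries). The choice of windows on WSC tags favours a lower share in other libraries, and the intervals cover counting error only. How many of all genes would separate in this way at their own densest windows was not counted. Whether *Cldn11*, *Mobp*, *Mbp* and *Mag* stand apart in this is therefore not known.

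The wider distribution of tags along the transcripts also differed between the groups. In WSC, 87.3% of *Cldn11* tags, 87.4% of *Mal* tags, 72.1% of *Mbp* tags and 65.3% of *Mobp* tags lay in the 3′ UTR. In MN, the 3′ UTR held 67.8% of *Cldn11* tags (interval 57.4 to 76.7, 59 tags), 87.2% of *Mal* tags (41 tags), 65.6% of *Mbp* tags and 48.7% of *Mobp* tags. *Mag* was unlike these, with 50.9% of its 281 WSC tags in coding exons and 11.7% in the 3′ UTR. *Ugt8a* divided its WSC tags between the 3′ UTR (43.6%), coding exons (30.7%) and introns (25.4%). The intronic share was higher in MN than in WSC for all 7 genes, from 8.23% to 12.8% for *Mal* and from 25.4% to 51.8% for *Ugt8a*. Over all genes, 33.4% to 46.4% of tags in the MN libraries and 60.9% to 66.2% in the WSC libraries were exonic, which is the same direction as on the myelin genes.

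**Figure D1:**
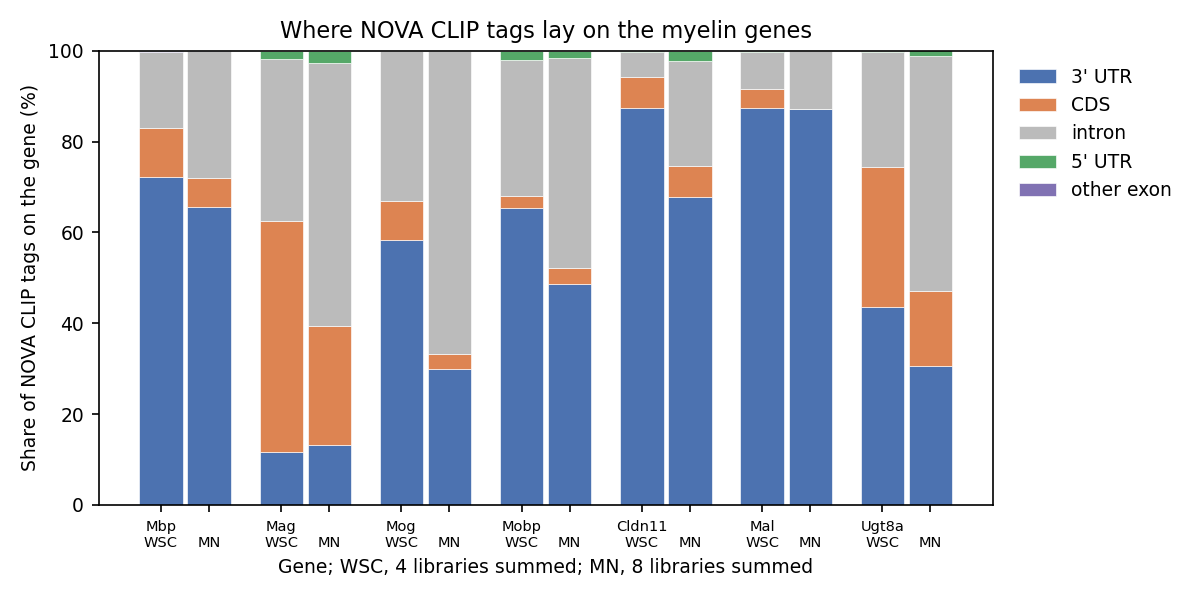
Share of NOVA CLIP tags of each myelin gene (y axis, %) in the 3′ UTR, coding sequence, introns, 5′ UTR and other exons, summed over the 4 WSC libraries (left bar of each pair) or the 8 MN libraries (right bar). The grey intronic part is larger in MN for every gene, reaching 51.8% on *Ugt8a* against 25.4% in WSC; the MN bars of *Mag* and *Mog* rest on 38 and 30 tags.

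To place these tags against the RNA itself, the level of each transcript in the WSC was taken from the RNA-seq. *Mbp* was measured at 2151 RPKM in the male and 2114 RPKM in the female library, a mean of 2132 ± 26.7 (SD, n = 2), and ranked 3 among all genes. It alone took 1.41% and 1.38% of all reads on genes, and the 7 genes together took 2.05% and 2.12%. *Mobp*, whose small basic protein is abundant in compact myelin, reached 596 and 707 RPKM (651 ± 78.1). The adhesion protein *Mag* reached 217 and 235 RPKM, and *Mog*, the antigen of the outer surface, 143 and 166 RPKM. *Cldn11* lay at 264 and 248 RPKM and *Mal* at 208 and 227 RPKM. *Ugt8a* was the lowest with 115 and 141 RPKM (128 ± 18.2), which still placed it at rank 401 and above 96.6% of the 11940 genes with a mean of at least 1 RPKM. The order *Mbp*, *Mobp*, *Cldn11*, *Mag*, *Mal*, *Mog* and *Ugt8a* was the same in both libraries. The neighbours *Mag* and *Mal* nevertheless differed by less than the spread between the libraries, as the ranges of *Mag* and *Mal* overlapped. In bulk tissue, fewer cells of a type and less RNA per cell cannot be told apart.

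**Figure D2:**
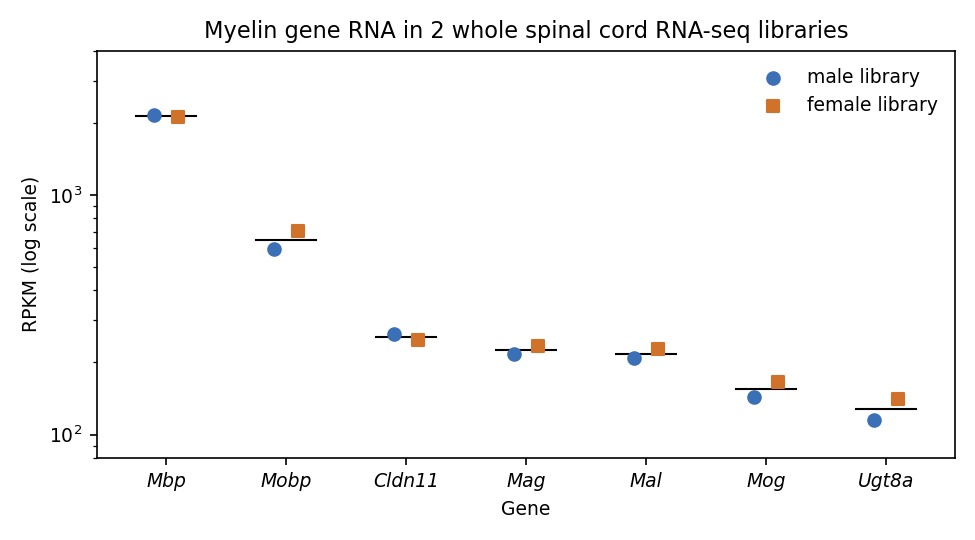
RPKM of the 7 genes (y axis, log scale) in the male (circles) and female (squares) WSC RNA-seq library, with the mean of both as a line. Levels fall from about 2132 RPKM for *Mbp* to 128 RPKM for *Ugt8a*, and only the neighbours *Mag* (217 and 235 RPKM) and *Mal* (208 and 227 RPKM) overlap.

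Between the 2 RNA-seq libraries, each of these genes differed by less than a factor of 5/4. *Ugt8a* was 1.22-fold higher in the female library (exact counting interval 1.21 to 1.24), *Mobp* 1.19-fold (1.18 to 1.19), *Mog* 1.16-fold, *Mal* 1.10-fold and *Mag* 1.08-fold. *Mbp*, at 0.982 of the male level, and *Cldn11*, at 0.941, were lower. Of the 11940 expressed genes, 15.0% differed by a factor above 5/4 in either direction, a share too small for 7 genes to stand out from it. The log2 difference, female minus male, lay between percentile 35.3 (*Cldn11*) and percentile 92.7 (*Ugt8a*) of expressed genes. *Mobp* lay at percentile 89.5 and *Mog* at 86.2, while *Mbp* lay at 46.4. The median size of the log2 difference over expressed genes was 0.14. With 1 library of each sex, sex, animal and library cannot be told apart, and no test was made.

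Of a list of 30 other myelin and oligodendrocyte genes, 28 were found in the RNA-seq tables and all 28 reached 1 RPKM, with a median of 91.9 RPKM against 226 for the 7 genes. Among those with the highest levels were *Trf*, transferrin (1025 ± 221 RPKM), and *Plekhb1* (565 ± 30.6). In the female library, 21 of the 28 were higher, with a median log2 difference of 0.11, compared with 5 of the 7 and 0.13. Among all expressed genes, 48.7% were higher in the female library.

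Alternative splicing is a known feature of several of these genes. The classic *Mbp* isoforms differ in whether they include 2 of the cassette exons, and *Mag* makes a large and a small form whose cytoplasmic tails differ. The exon tables held 7 entries for *Mbp*, 2 for *Mag* and 1 each for *Mobp* and *Mal*, at 9 distinct positions since several *Mbp* entries share exons and junctions, and none for *Mog*, *Cldn11* and *Ugt8a*. All 11 entries had at least 10 junction reads in each library. For inclusion, the reads on the 2 inclusion junctions were averaged and divided by their sum with the skipping reads; intervals are 95% Wilson intervals and cover counting error only. The test of a difference used the inclusion count of the tables, which adds reads in the exon body to those of both junctions, so that 1 molecule can count more than once.

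The *Mag* exon of 45 nt has the annotated end of the coding sequence of the small form within it. It is shown with 60 nt of intron on each side, the exon in capitals, because both of its forms were common.
Mag 45-nt exon (chr7:31685311-31685475, minus strand): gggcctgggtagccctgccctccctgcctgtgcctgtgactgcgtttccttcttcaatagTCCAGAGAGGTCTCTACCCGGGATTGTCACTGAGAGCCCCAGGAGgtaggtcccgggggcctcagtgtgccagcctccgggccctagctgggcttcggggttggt

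In the male library 848 and 654 reads spanned its inclusion junctions and 396 skipped it, an inclusion of 65.5% (62.7 to 68.2). The female library held 911 and 642 inclusion reads and 326 skipping reads, or 70.4% (67.7 to 73.0). The mean was 68.0% ± 3.50 (SD, n = 2). Inclusion did not differ between the libraries at the threshold of 0.1 (two-sided Fisher's exact test over all exons, adjusted P = 0.155). Only 1 YCAY lay in the printed stretch, within the exon. Over the 200 nt of intron before the exon there was 1 and over the 200 nt after it there were 2, whereas the median over 10428 cassette exons was 3 on either side.

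A second *Mag* exon, 53 nt in the 5′ UTR at chr7:31699288-31699340, was mostly skipped. Its inclusion was 29.0% (27.0 to 31.0) in the male and 23.0% (21.2 to 24.9) in the female library, with 1428 and 1509 skipping reads. With exon body reads added, its mean rose from 26.0% to 41.4%. This was the single entry of the myelin genes that was called and lower in the female library (adjusted P = 7.74e-05).

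The *Mbp* entries showed a mixture dominated by short forms. The 78-nt exon (chr18:82731170-82731247), which adds a stretch to the larger isoforms that are best known from developing myelin, was included at 10.8% (10.3 to 11.2) in the male and 13.7% (13.2 to 14.2) in the female library, with 18535 and 15131 reads joining its neighbours directly. The 123-nt exon (chr18:82748328-82748450) was included at 16.4% (16.0 to 16.8) and 19.5% (19.0 to 20), beside 25135 and 19880 skipping reads. The 33-nt exon before it (chr18:82744993-82745025) was included at 99.8% in both. Thus most *Mbp* mRNA in the adult cord carried the 33-nt exon and lacked the 78-nt and the 123-nt exons; which combinations occurred on 1 molecule was not analysed here.

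The remaining *Mbp* entries described rare joins. A 128-nt version of the 123-nt exon, with an end 5 nt further on that the annotation does not hold, had no read at all on its downstream junction in either library, and its nominal inclusion of 10.4% and 12.1% came from the upstream junction that it shares with the 123-nt exon. Reads joining the far upstream exon of the Golli transcripts of this locus to the exon of 431 nt numbered 44 and 23, against 18535 and 15131 on its other junction. When the 33-nt exon was skipped, the join to the 123-nt exon had 9 and 22 reads.

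The *Mobp* and *Mal* exons were seldom skipped. The 79-nt *Mobp* exon in the 5′ UTR (chr9:120063805-120063883) was included at 94.2% and 95.3%, with 12513 and 13324 reads on its first junction and 4136 and 4322 on its second. The 168-nt *Mal* exon, coding and a multiple of 3 in length, was skipped by 0 reads in the male and 3 reads in the female library, an inclusion of 99.7% (99.0 to 99.9) in the latter. Its first inclusion junction had 260 and 228 reads and its second 1606 and 1564. On both the *Mobp* and the *Mal* exon the 2 junctions were thus uneven, and joins other than those of the entries were not analysed. The *Mal* exon is shown as a rarely skipped counterpart of the *Mag* exon, with 60 nt of intron on each side and the exon in capitals, and holds 4 YCAY.
Mal 168-nt exon (chr2:127465897-127466184, minus strand): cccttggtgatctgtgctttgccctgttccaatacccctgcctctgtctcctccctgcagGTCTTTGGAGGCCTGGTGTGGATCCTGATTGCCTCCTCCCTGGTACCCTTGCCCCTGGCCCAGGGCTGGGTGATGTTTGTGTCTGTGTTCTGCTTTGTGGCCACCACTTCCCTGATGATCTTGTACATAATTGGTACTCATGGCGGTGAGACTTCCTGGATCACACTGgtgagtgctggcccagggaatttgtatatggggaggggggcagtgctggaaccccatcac

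**Figure D3:**
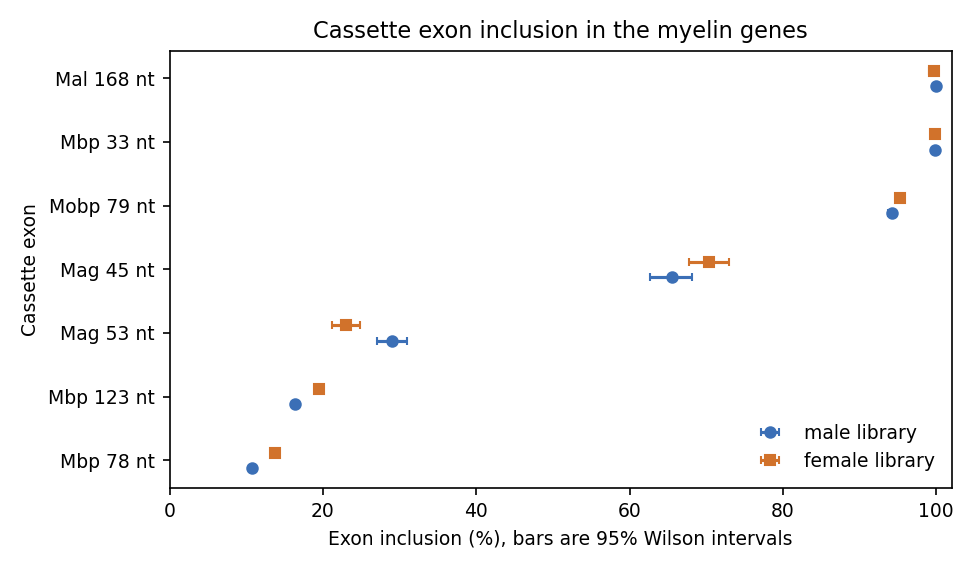
Inclusion (x axis, %) of 7 cassette exons of the myelin genes in the male (circles) and female (squares) library, with 95% Wilson intervals. The *Mbp* 78-nt and 123-nt exons lie below 20%, the *Mag* 45-nt exon lies at 65.5% and 70.4%, and the *Mal*, *Mobp* and 33-nt *Mbp* exons lie above 94%.

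Between the 2 libraries, 5 of the 11 entries passed FDR of at most 0.1 in Fisher's exact test, and the same 5 passed with averaged junction reads alone. These were the 53-nt *Mag* exon, the 78-nt *Mbp* exon (higher in the female library by 2.91 percentage points, adjusted P = 4.51e-26), both versions of the 123-nt *Mbp* exon (3.06 points for the annotated one, adjusted P = 1.41e-45) and the *Mobp* exon (1.09 points, adjusted P = 0.0723). By comparison 4.26% of the 9396 exons tested were called, and 10.5% of the 247 exons with at least 1000 junction reads in each library, a depth that all 11 entries exceeded. These shares are not matched in depth, on which the test depends. Only 5 tested exons had more junction reads than the 78-nt *Mbp* entry (23006) in the male library. Most of these were other *Mbp* entries, with 25445 to 44795 reads, several of which share junctions. The 2 called *Mbp* 123-nt versions share a junction and are not separate results. The test compares 2 libraries, not the sexes, and reads carried no molecular identifiers.

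NOVA tags near the cassette exons were counted within 400 nt of each exon. The 431-nt *Mbp* exon had most, with 289 WSC tags (5.08% of those on the gene), 282 of them in the exon itself, and 25 MN tags, all in the exon. The others had few. Within 400 nt of the 45-nt *Mag* exon the 4 WSC libraries held 2, 2, 2 and 3 tags, none of them in the exon, and the 8 MN libraries held 2 in all. The 53-nt *Mag* exon had 4 WSC tags and the *Mal* exon 10, all 10 within the exon. Around the 78-nt *Mbp* exon there were 38 WSC and 5 MN tags, around the 33-nt exon 56 and 7, and around the 123-nt exon 31 and 2. The *Mobp* exon had 35 and 8. Apart from the 431-nt exon, these regions held 0.545% to 3.20% of the WSC tags of their genes, and no test was made on such counts.

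NOVA tags on whole genes were then compared between MN and WSC. Values are tags on the gene scaled to library depth (CPM, with edgeR's TMM factors). *Ugt8a* had 119, 126, 128 and 126 CPM in the WSC libraries. Its MN values were 41.8, 30.4, 59.8 and 106 CPM in line 6 and 40.2, 42.0, 45.7 and 48.9 CPM in line 17. All 8 MN libraries lay below all 4 WSC libraries. The difference was -1.15 ± 0.16 on the log2 scale (SE, edgeR quasi-likelihood test, FDR = 1e-06). It was -1.05 with FDR = 2.6e-06 when only the 4 long-barcode MN libraries were used.

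*Mal* was likewise lower in all 8 MN libraries. Its WSC values were 73.4, 67.6, 61.3 and 64.8 CPM. Line 6 gave 13.9, 15.2, 37.7 and 23.5 CPM and line 17 gave 0, 25.2, 15.2 and 37.1 CPM, from 0 to 25 tags a library. The log2 difference was -1.15 ± 0.21 (FDR = 4.6e-05), and -0.99 (FDR = 0.00027) in the long-barcode libraries. Over all 12 libraries *Mal* passed the filter on low counts only through WSC, the group where it was high. Without that filter its difference was -1.35 (FDR = 7.6e-08), with a median over all genes of -0.47. *Mal* and *Ugt8a* were thus the genes of this group whose MN and WSC libraries did not overlap in either barcode form. The share of all genes separated in this way was not counted, so whether this sets them apart is not known. Neither *Mal* nor *Ugt8a* was called when each tag was weighted by its read copies (FDR = 0.54 and 0.7), where 14 of 11360 genes were.

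*Mobp* fell by 0.61 ± 0.18 on the log2 scale in MN (FDR = 0.0041). Its WSC libraries lay at 202, 162, 203 and 221 CPM. Line 6 gave 27.8, 60.8, 214 and 176 CPM and line 17 gave 60.4, 50.4, 76.2 and 120 CPM. The 4 short-barcode libraries were the lowest, and the 2 long-barcode libraries of line 6 overlapped WSC. With long-barcode libraries alone the difference was -0.38 and was not called (FDR = 0.025). Nor was it called without line 17 replicate 2 (-0.54) or with exonic tags alone (-0.19, FDR = 0.42).

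*Mbp*, the gene with most tags, was not called. WSC libraries gave 385, 356, 422 and 398 CPM, line 6 gave 139, 106, 497 and 387 CPM, and line 17 gave 181, 252, 518 and 392 CPM. The 4 short-barcode MN libraries all lay below WSC, whereas 2 of the 4 long-barcode libraries lay above it. The log2 difference was -0.11 ± 0.16 over all libraries (FDR = 0.54) and 0.12 ± 0.11 with long-barcode libraries alone (FDR = 0.35). Within the MN libraries, short against long barcode differed by -1.30 ± 0.23 on the log2 scale (FDR = 0.011, above the threshold of 0.01), and *Mobp* by -1.61 ± 0.35 (FDR = 0.033). In that comparison 2 of 2242 genes were called.

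*Cldn11* had 74.5, 81.5, 84.5 and 77.0 CPM in WSC. Line 6 gave 27.8, 0, 66.0 and 93.9 CPM and line 17 gave 20.1, 58.8, 76.2 and 51.9 CPM, so that 2 of the 8 MN libraries were not below the WSC range. Its difference of -0.48 ± 0.20 was not called (FDR = 0.033), nor was -0.33 in the long-barcode libraries (FDR = 0.13). Without a filter on low counts it was called (-0.69, FDR = 0.0018).

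*Mag* and *Mog* did not pass the filter on low counts over all 12 libraries, since their WSC levels were low too. Without that filter their differences were 0.17 ± 0.29 (FDR = 0.75) and 0.58 ± 0.33 (FDR = 0.19). There the median over all genes was -0.47. *Mag* held 38 MN and 281 WSC tags and *Mog* 30 and 166. WSC levels were 17.1 to 21.7 CPM for *Mag* and 10 to 12.5 CPM for *Mog*, and MN levels 0 to 47.0 and 0 to 34.6 CPM, on both sides of the WSC values. In the long-barcode fit, where both could be tested, the differences were 0.54 ± 0.30 (FDR = 0.13) for *Mag* and 0.96 ± 0.34 (FDR = 0.018) for *Mog*.

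**Figure D4:**
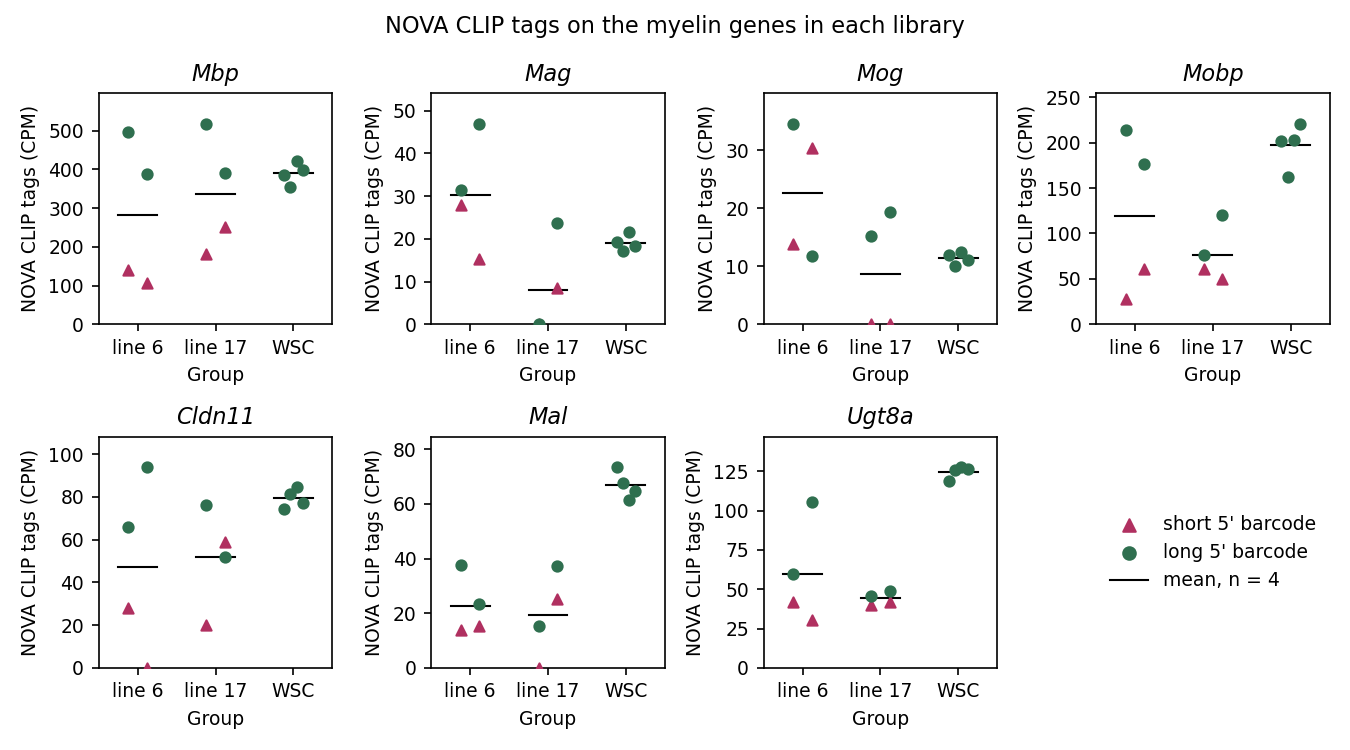
NOVA CLIP tags (y axis, TMM-scaled CPM) on each gene in the 4 libraries of line 6, line 17 and WSC, with the barcode form as the symbol and the group mean as a line. For *Mal* and *Ugt8a* all 8 MN libraries lie below the WSC libraries, whereas for *Mbp* the 4 long-barcode MN libraries, at 387 to 518 CPM, lie within or above the WSC range.

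Of the myelin genes, 3 of the 5 tested were lower in MN and none was higher, while 29.1% of all 4536 genes tested were lower and 27.6% higher (1319 and 1251 genes). *Mal*, among the 3, passed the filter only through its WSC libraries. Without a filter on low counts the split was 2656 lower and 1049 higher of 16430 genes, with a median over all genes of -0.47. In that fit 4 of the 7 myelin genes were called, all of them lower, and *Mag* and *Mog* were not. In the long-barcode libraries, 2 of 7 were lower and 0 higher, against 20.9% of 8926 genes lower. In the short-barcode MN libraries against WSC, a comparison added after the data were seen, 5 of 7 were lower, against 14.2% of 8520 genes. The median over all genes was -0.41 there, against -0.02 with all libraries, and the differences of *Mbp* (-1.43), *Mobp* (-2.24), *Cldn11* (-1.83), *Mal* (-2.27) and *Ugt8a* (-1.91) are to be read against it. The tags of the 7 genes made up 0.0919% ± 0.00482 of tags on genes in WSC (SD, n = 4), 0.0798% ± 0.0108 in the long-barcode MN libraries and 0.0315% ± 0.00751 in the short-barcode MN libraries (n = 4 each). The 5 defining oligodendrocyte markers moved with them, summing to 682 to 901 CPM in WSC, 576 to 729 CPM in long-barcode and 294 to 480 CPM in short-barcode MN libraries. Of the astrocyte markers, all 4 tested were lower in MN, the 5 summing to 2232 to 2794 CPM in WSC and 870 to 1721 CPM in MN. The 5 Schwann cell markers, none of which could be tested, summed to 2.18 to 3.36 CPM in WSC and 0 to 45.5 CPM in MN, with 2 of them at 0 in MN. The part of these cell types in the results was not tested.

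**Figure D5:**
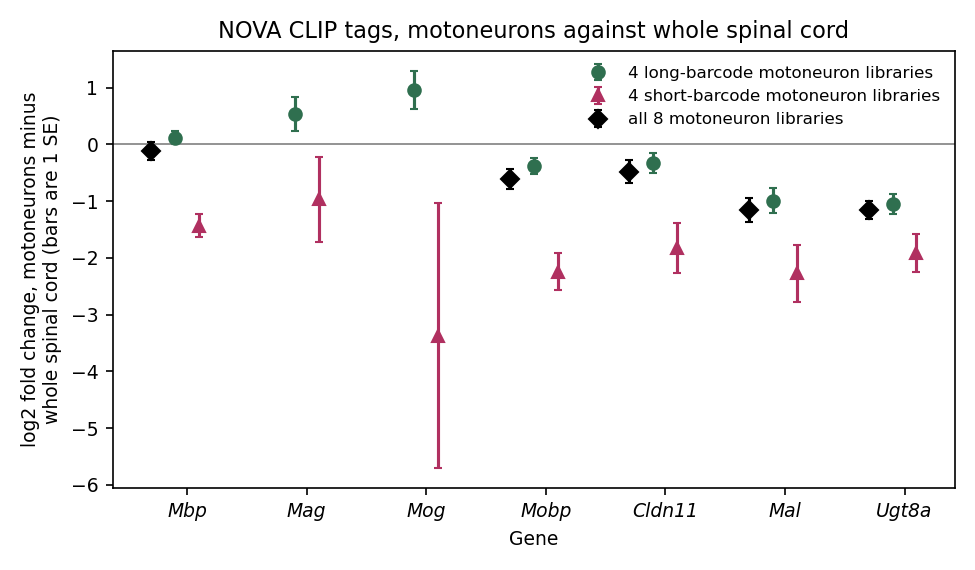
Log2 fold change of NOVA CLIP tags, MN minus WSC (y axis, bars are 1 SE), for each gene with all 8 MN libraries, with the 4 long-barcode and with the 4 short-barcode MN libraries. *Mal* and *Ugt8a* lie between -0.99 and -1.15 with and without the short-barcode libraries, while *Mbp* moves from -0.11 to 0.12; *Mag* and *Mog* have no value with all libraries.

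Between the 2 transgenic lines, 5 of the genes could be tested. Line 6 minus line 17 ranged from -0.14 ± 0.45 (*Mal*) to 0.67 ± 0.33 (*Mobp*) on the log2 scale, and none of the 5 was called (FDR of 0.97 or more). The difference of *Mobp* was 0.18 without line 6 replicate 3 and 1.43 without line 17 replicate 4, and that of *Ugt8a*, 0.51 with all libraries, was 0.13 without line 6 replicate 4. *Mag*, at 30.4 ± 13.1 CPM in line 6 and 8.03 ± 11.2 in line 17 (SD, n = 4 each), and *Mog*, at 22.7 ± 11.5 and 8.63 ± 10.1, did not pass the filter for this test. Over all genes 0 of 4536 (0%) were called by edgeR, 216 having an unadjusted P under 0.05.

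Of the 30 other myelin and oligodendrocyte genes, 9 could be tested in CLIP, of which 4 were lower and 2 higher in MN, with a median log2 difference of -0.40. The shares over all 4536 genes tested were 29.1% lower and 27.6% higher. With long-barcode libraries alone 22 could be tested, of which 4 were lower and 4 higher, with a median of 0.00. Of all 8926 genes tested there, 1862 (20.9%) were lower and 1440 higher. The 3 largest differences were those of *Plekhb1* (-1.78 ± 0.18, FDR = 2.3e-09), *Olig1*, a transcription factor of the lineage (-1.64 ± 0.26, FDR = 4.8e-06), and *Gjc3*, a connexin (-0.82 ± 0.26, FDR = 0.0069). In MN *Olig1* reached at most 35.2 CPM, against 50.1 to 69.8 CPM in WSC. *Olig1* thus passed the filter on low counts over all 12 libraries only through WSC, the group where it was high. With long-barcode libraries alone *Plekhb1* (-1.73) and *Olig1* (-1.56) were still called and *Gjc3* was not (FDR = 0.017). The others that passed, named after their values were seen, were *Ermn* (-0.76, FDR = 0.0013), and, higher in MN, *Enpp2* (0.76, FDR = 0.0052) and *Nfasc* (0.49, FDR = 0.00021), the latter encoding neurofascin, which neurons express too.

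Finally, WSC tags were set against the RNA level. Exonic tags in CPM divided by RPKM gave 0.0502 ± 0.0124 for *Mog*, 0.0548 ± 0.00898 for *Mag*, 0.158 ± 0.00983 for *Mbp*, 0.220 ± 0.0274 for *Mobp*, 0.291 ± 0.0182 for *Mal*, 0.303 ± 0.0212 for *Cldn11* and 0.761 ± 0.0296 for *Ugt8a* (SD over 4 CLIP libraries). The median over 10508 genes was 0.887, and all 7 lay below it. Because tags were not divided by length in this ratio, it was also formed per kilobase of annotated exon, an addition made once the data had been seen. The 7 genes were again all below the median, from the 7.48th percentile for *Mbp* to the 47.9th for *Ugt8a*. Without a filter on low values, *Ugt8a* rose above the median (52.9th percentile). The CLIP and RNA-seq mice differed in strain and transgene, and the ratio is a description without a test. *Mbp*, for instance, had 40 exonic CPM per kilobase at 2132 RPKM, and *Cldn11* had 42.1 at 256 RPKM.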

How the data were processed

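CLIP reads were mapped by the authors to mm9 with Novoalign (name per the labels), filtered and collapsed; each deposited row is 1 unique tag, and the deposited score column was not used as a value. RNA-seq reads were trimmed, mapped with OLego and counted with Quantas by the authors, who deposited gene read counts, the RPKM made from them, and counts of reads on exons and junctions. Reads with several positions were removed, and no input for CLIP was used here. The gene members and lists were chosen with earlier results of these data known.

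Here, tag midpoints were counted on the sense strand of protein-coding genes (GENCODE vM1, NCBIM37, which is mm9) where 1 gene was hit. Genes passing filterByExpr were fitted with edgeR 4.0.16 (quasi-likelihood, TMM, 3 groups, mean of both lines minus WSC, FDR of at most 0.01, all 12 libraries); DESeq2 1.42.0 was an alternative. Exons with at least 10 junction reads in each library were tested on the deposited inclusion and skipping counts with Fisher's exact test and Benjamini-Hochberg adjustment (FDR of at most 0.1). Percentiles of RPKM used genes with a mean of at least 1, and log2 RPKM used a pseudocount of 0.1. Of the cassette entries, 10948 of 13189 were placed on annotated exons by the sizes of exon and introns, 10 of the 11 myelin entries among them. CLIP and RNA tables were joined by symbol (17026 genes). Named were the 7 genes, all their exons, and from the list of other myelin genes the 3 highest by RPKM and the 3 largest CLIP differences that passed, plus the 5 genes closest to the summed tags. 1 gene that this rule names is not reported here. CLIP replicates of a group differed beyond counting noise (chi-square per degree of freedom 1.29 to 3.59 over 18 pairs), and the CLIP p-values measure the spread between libraries, which may be technical. Fisher p-values of exons cover counting error only. Alternatives were other scalings, filters, tests, tag definitions, barcode groups and leaving out each library.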

Additional observations from a re-analysis of the deposited data

Results flagged for a closer look

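Tags on the strand opposite to a gene were not part of any comparison. On *Mbp* the 4 WSC libraries held 42 such tags, 4 to 20 a library, and the MN libraries 5, beside 5691 and 578 sense tags. Background tags cannot be told apart here, and the share on other genes was not compared. *Ugt8a* had 4 opposite-strand tags in WSC and 1 in MN. None of 21 groups of 4 libraries, 7 genes in 3 groups, held a CPM value far from the other 3 by Dixon's criterion.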

How the results depend on the processing

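*Ugt8a* and *Mal* were called lower in MN under every alternative that tested them except tags weighted by read copies (chosen after the data were seen), which ended every call (-0.88, FDR = 0.7 and -1.84, FDR = 0.54); *Mal* was not testable with exonic or intronic tags alone. Of the myelin genes, 3 were called over all libraries, 1 of 4 tested with exonic tags only, 5 with short-barcode MN libraries, 0 of 7 with tags weighted by read copies, and 2 to 3 when 1 library was left out, the call of *Mobp* being lost without line 17 replicate 2. *Mobp* was not called by DESeq2 (-0.91, FDR = 0.013), with barcode form as a covariate (-0.36) or with line 6 alone (-0.26). *Mbp* changed sign in MN against WSC with exonic tags (0.46), the barcode covariate (0.15) and long-barcode libraries (0.12), and in line 6 against line 17 with 8 libraries (-0.08), the replicate block (-0.13) and the barcode covariate (-0.01), never with a call. Without single libraries the line difference ranged from -0.46 to 0.22 for *Mbp*, -0.69 to 0.74 for *Mal*, -0.10 to 0.38 for *Cldn11*, 0.18 to 1.43 for *Mobp* and 0.13 to 0.65 for *Ugt8a*; no myelin gene was called (0 to 0). The cause was not tested.

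All genes called in MN against WSC numbered 2570, 1064 with exonic and 747 with intronic tags (fewer genes tested), 1690 with short-barcode MN libraries and 14 with read copies. Fisher's test on junction reads alone called 122 exons instead of 400. Adding exon body reads raised the inclusion of the 78-nt *Mbp* exon to 22.5% of the 123-nt exon to 37.5% and of the 53-nt *Mag* exon to 41.4%. With all genes that had a read, 25% of genes differed by a factor above 5/4 between the RNA-seq libraries. Without line 17 replicate 4, 3 genes in all differed between the lines, none a myelin gene.

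Replicate numbers did not pair the samples (r from -0.07 to 0.19 over 12 same-numbered pairs, 3 above 0.1); with the replicate block 3 myelin genes and 2082 genes in all were called, and 0 between the lines. Counting every row was the same as the reported count, because rows were already unique tags. MN depth limits *Mag* and *Mog*, whose tags were 0 to 16 a library.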

Other observations

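Among genes that passed the filter in CLIP, the 5 whose CPM, centred within each group, followed that of the summed tags of the myelin genes most closely over 12 libraries were *Hnrnpa2b1* (Pearson r = 0.98, 86 MN and 299 WSC tags), *Klraq1* (0.98), *Brms1l* (0.97), *Cdc37l1* (0.96) and *Npat* (0.96). *Hnrnpa2b1* encodes an RNA-binding protein. *Mbp* supplied 44.1% of the summed tags in WSC and 54.3% in MN. The libraries share barcode form and depth, the 5 were picked from 4536 genes, and the values are a description without a test.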
